A study of Mus musculus with 12 samples.

Results

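The dependence of the colon's response to interleukin-10 (IL-10) loss on STING was read as 1 number per gene, the interaction term of a 2 by 2 design: the difference between IL-10-deficient and IL-10-sufficient mice without STING, less the same difference with STING. All 12 arrays of the series and all 22180 measured genes entered it, and none was left out on its values. The gene lists below were written with earlier results of these data known, and some named genes were chosen after their values were seen. List counts set beside the share of all genes are therefore descriptions and not tests. The colon was profiled on Affymetrix whole-transcript arrays in 4 genotypes, with 3 arrays each. They were IL10+/+ STING+/+ (WT), IL10-/- STING+/+ (IL10KO), IL10+/+ STING-/- (SKO) and IL10-/- STING-/- (DKO). The labels give no age, strain background, housing, hour of collection or stretch of colon, and do not state whether each array came from its own animal, so the tests speak of the spread among these arrays. Any such difference between the groups cannot be told apart from genotype.

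IL-10 is a cytokine that holds back macrophages and other immune cells, and the colon of mice that lack it becomes inflamed in the presence of gut bacteria. STING is an adaptor in the membrane of the endoplasmic reticulum. It is switched on by cyclic dinucleotides, made by the DNA sensor cGAS or by bacteria, and passes the signal through TBK1 to IRF3 and NF-kB, which drive type I interferon and inflammatory genes. In the gut, STING is known both for promoting inflammation and for supporting the barrier. DKO set against SKO asks what IL-10 loss does when this adaptor is missing. IL10KO set against WT asks what it does when the adaptor is present, and the interaction term is the first difference less the second.

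Values are log2 signals, on which a difference of 1 is a 2-fold change, and the array medians lay between 4.80 and 5.02. A negative interaction term means that IL-10 loss moved a gene less far up, or further down, without STING than with it, and a positive term the opposite. Terms are given with their standard error, and a call means a Benjamini-Hochberg adjusted p under 0.05 over all 22180 genes in limma's moderated test on all 12 arrays. The 8 markers of colon epithelium examined (Cdx2, Car1, Krt20, Lgals4, Cdh17, Vil1, Epcam and Muc2) had signals between 6.61 and 12.95 in every array. Sting1, which encodes STING, read 7.51, 6.40 and 4.56 in WT, 6.87, 8.09 and 7.33 in IL10KO, 4.40, 4.32 and 4.28 in SKO, and 4.23, 4.13 and 4.34 in DKO. The library labelled WT replicate 3 was thus close to the STING-/- arrays and went against its label, and what leaving it out changes is given below. The Sting1 interaction of -1.38 ± 0.73 was not called (limma adjusted p = 0.373), and it was -0.58 (limma adjusted p = 0.564) without that library. Il10 read 3.65, 3.59 and 3.80 in WT, 4.59, 4.87 and 5.47 in IL10KO, 3.82, 3.65 and 3.70 in SKO, and 4.60, 4.49 and 4.33 in DKO, higher in both IL10-/- genotypes than in the others, and the sources used here do not give where its probe set lies relative to the deleted part. Its interaction of -0.55 ± 0.26 was not called (limma adjusted p = 0.332).

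The interaction was called for 143 of 22180 genes (0.645%), 81 of them negative (0.365%) and 62 positive (0.28%), and 135 of the 143 had a term of at least 1 in size. Among the 143, the effect of IL-10 loss was larger in size with STING than without it in 134 genes and larger without STING in 9. Its median size over the 143 was 1.45 with STING and 0.20 without it, against 0.22 and 0.12 over all genes. In 118 of the 143 the DKO minus SKO difference was under 0.5 in size, and in 7 it was at least 1. All 81 genes with a negative term had a higher mean in IL10KO than in WT, and 61 of the 62 with a positive term had a lower one. The 3 IL10KO arrays lay beyond all 9 others in 134 of the 143 (79 negative and 55 positive), which held for 11.5% of all genes. The 143 were called on these same arrays, so the higher share follows in part from how they were picked. It describes the calls and is not separate support for them. Over all genes the median term was -0.04 and its median standard error 0.24, so a typical gene had a 95% interval of 0.51 either side of its term. Of all terms, 54.3% were negative, the share beside which the counts of signs in the lists below stand. Members of a list may move together across arrays, so these counts are not counts of separate observations. At an unadjusted p under 0.05, 3480 genes passed.

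**Figure D1:**
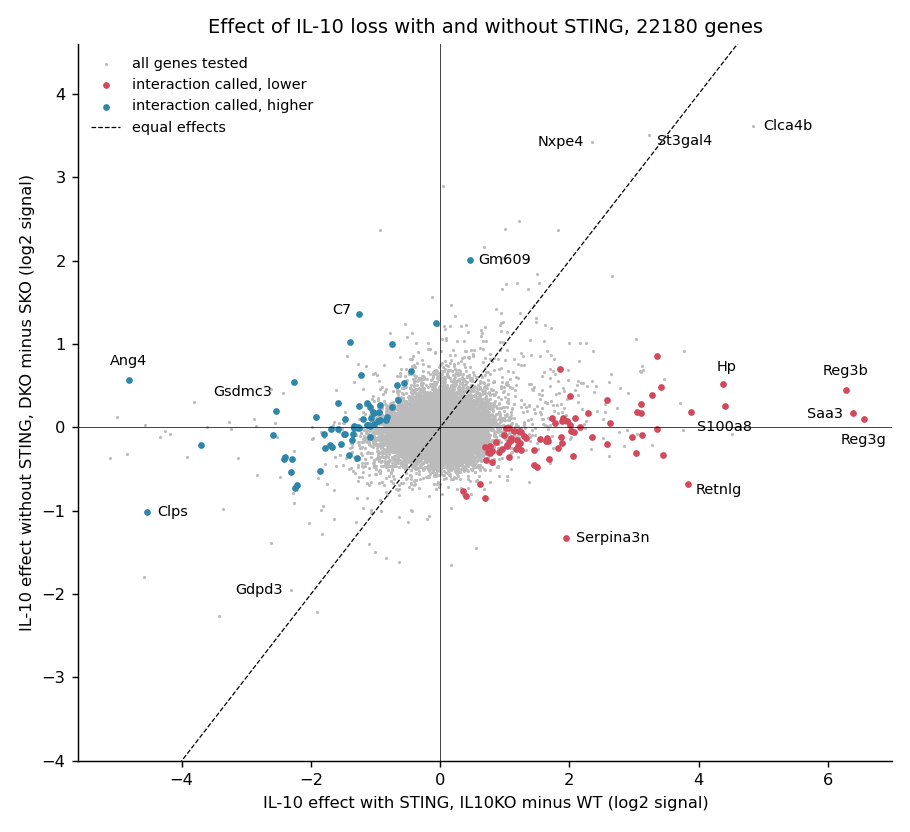
Effect of IL-10 loss on each of 22180 genes with STING (IL10KO minus WT, horizontal axis, log2 signal) and without it (DKO minus SKO, vertical axis, log2 signal), with equal effects on the dashed line. The 81 called genes with a negative term (red) and the 62 with a positive term (blue) lie mostly along the horizontal axis, while St3gal4 and Gdpd3 lie near the dashed line.

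The number of calls moved with single arrays. Leaving out WT arrays 1, 2 and 3 in turn gave 73, 51 and 168 calls, the last being the library labelled WT replicate 3, and leaving out IL10KO arrays 1, 2 and 3 gave 316, 376 and 122. With SKO arrays 1, 2 and 3 left out it was 57, 55 and 75, and with DKO arrays 1, 2 and 3 left out 59, 50 and 106. Without IL10KO array 2 the split turned to 149 negative and 227 positive. Of the 143 genes, 43 were called in each of the 12 fits that leave out 1 array, 30 negative and 13 positive, and these are preferred below. Without the library labelled WT replicate 3, 168 genes were called (0.757%), 114 of them among the 143, and the split was 85 negative and 83 positive. The terms of the 143 then came to between 90.6% and 118% of their size over all 12 arrays. Of the calls, 29 were lost, including those of Ppbp, Npas2, Cry1 and Tppp3. No called gene changed sign in any of these 12 fits.

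Signals of other tissues also differed between arrays of these genotypes. The list means in this paragraph are ordered by size and not by replicate. The mean of 24 measured pancreatic acinar genes was 5.28, 7.44 and 9.86 in the WT arrays and between 4.79 and 5.24 in the other 9. The mean of 32 stratified squamous and sebaceous genes was 5.18, 6.71 and 6.91 in IL10KO, at most 5.16 in DKO and between 4.48 and 4.79 in WT and SKO. With both means as covariates, 20 genes were called (0.0902%), and 13 of the 143 were among them: Reg3g, Saa3, Reg3b, Hp, Lrg1, Mmp7, Chil3, Slpi, Dhrs9, Ang4, Gsdmc3, Gm15401 and 2310079G19Rik. None of the 143 changed sign with the covariates, and their terms came to between 39.8% and 151% of their size without them. These covariates use up 2 of the 8 residual degrees of freedom and follow genotype in part, so their share in the other calls was not tested.

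The 3 largest negative terms were those of Reg3g, Saa3 and Reg3b, members of the epithelial defence list. In that list, 8 of 30 measured genes had a negative call (0.365% of all genes did) and 1, Ang4, a positive one, with a list median of -0.27 against -0.04 over all genes. With the acinar and squamous covariates, 4 members had a negative call and 1 a positive one. Reg3g, a lectin that kills Gram-positive bacteria at the epithelial surface, read 3.09, 2.71 and 2.65 in WT, 10.20, 8.76 and 9.16 in IL10KO, 2.84, 3.11 and 2.82 in SKO, and 2.81, 3.12 and 3.14 in DKO. All 3 IL10KO arrays stood far above the other 9, whose levels overlapped. Its term was -6.46 ± 0.39 (limma adjusted p = 2.69e-06), made of a difference of 6.56 with STING and 0.10 without it. Reg3b, its close relative, read 4.03, 6.67 and 4.33 in WT, 12.63, 10.12 and 11.11 in IL10KO, 4.15, 4.59 and 3.86 in SKO, and 4.85, 4.22 and 4.89 in DKO. One WT array was raised, but still lay below every IL10KO array, and the term was -5.82 ± 0.89 (limma adjusted p = 0.0118). The terms of Reg3g and Reg3b were -6.38 (limma adjusted p = 1.73e-05) and -5.48 (limma adjusted p = 0.0181) without the library labelled WT replicate 3.

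Saa3, a serum amyloid A made in inflamed tissue, read 4.28, 4.11 and 4.21 in WT, 10.55, 10.52 and 10.70 in IL10KO, 3.86, 4.46 and 4.02 in SKO, and 4.14, 4.69 and 4.01 in DKO. The IL10KO arrays differed among themselves by less than 0.2, and none of the other 9 came near them. Its term was -6.22 ± 0.27 (limma adjusted p = 4.95e-08) and stayed within -6.43 to -6.05 when 1 array was left out. Hp (haptoglobin, which binds free haemoglobin) read 5.32, 6.27 and 4.88 in WT, 10.04, 9.92 and 9.64 in IL10KO, 4.79, 5.18 and 4.95 in SKO, and 6.06, 4.65 and 5.78 in DKO, with overlapping levels in the other 3 genotypes, and its term was -3.85 ± 0.50 (limma adjusted p = 0.00477). Lcn2, which starves bacteria of iron by binding their siderophores, read 6.24, 5.62 and 6.25 in WT, 8.38, 10.02 and 8.62 in IL10KO, 5.89, 6.21 and 6.06 in SKO, and 6.26, 5.55 and 6.02 in DKO. Its term was -3.09 ± 0.48 (limma adjusted p = 0.0122), with a DKO minus SKO difference of -0.11. Slpi, an inhibitor of leukocyte proteases, read 6.42, 6.08 and 6.53 in WT, 9.57, 9.73 and 9.57 in IL10KO, 6.68, 6.74 and 7.10 in SKO, and 7.43, 7.30 and 6.93 in DKO. DKO lay above WT in every array but far below IL10KO, and the term was -2.90 ± 0.24 (limma adjusted p = 7.15e-05). Pla2g2a, a phospholipase that attacks bacterial membranes, had a difference of 3.35 with STING, 0.86 without it and a term of -2.49 ± 0.38 (limma adjusted p = 0.0118). Slpi was chosen after its values were seen. Each of these genes was called in all 12 fits that leave out 1 array.

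Windows around the start sites of 6 called genes are shown because they hold some of the short motifs searched for, which are listed below. Another reason is that 3 of them are matrix metalloproteinases that lie on 1 chromosome. Each runs from 250 bases before to 50 after the start site, 5′ to 3′ on the gene's strand, from RefSeq on GRCm38.p6, with motif matches in capitals. Saa3 (chr7:46715627-46715926, minus strand) holds a match to the C/EBP motif 99 bases before the start and 1 to the interferon response element (ISRE) 125 bases before it. Mmp7 (chr9:7691840-7692139, plus strand, the first of 2 listed windows) and Mmp10 (chr9:7502092-7502391, plus strand) each hold an AP-1 match 63 bases before the start, and a C/EBP match 97 and 241 bases before it. Mmp13 (chr9:7272264-7272563, plus strand) holds an AP-1 match at 35 bases and 2 overlapping ISRE matches at 151 and 145 bases before the start. Ciart (chr3:95882179-95882478, minus strand), a clock gene, holds 3 E-boxes, at 116, 58 and 44 bases, and Ang4 (chr14:51773541-51773840, minus strand) an AP-1 match at 122 bases before the start.
Saa3: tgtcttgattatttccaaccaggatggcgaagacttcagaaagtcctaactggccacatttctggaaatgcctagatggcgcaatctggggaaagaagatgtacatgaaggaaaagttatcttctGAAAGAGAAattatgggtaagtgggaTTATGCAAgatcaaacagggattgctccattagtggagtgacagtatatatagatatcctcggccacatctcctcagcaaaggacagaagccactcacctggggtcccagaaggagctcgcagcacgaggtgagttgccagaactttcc
Mmp7: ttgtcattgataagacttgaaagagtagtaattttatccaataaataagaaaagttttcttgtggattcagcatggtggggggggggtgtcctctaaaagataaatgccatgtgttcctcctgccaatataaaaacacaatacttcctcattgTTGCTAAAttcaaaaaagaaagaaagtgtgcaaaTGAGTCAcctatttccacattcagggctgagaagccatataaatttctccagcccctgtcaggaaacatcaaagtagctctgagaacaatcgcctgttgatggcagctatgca
Mmp10: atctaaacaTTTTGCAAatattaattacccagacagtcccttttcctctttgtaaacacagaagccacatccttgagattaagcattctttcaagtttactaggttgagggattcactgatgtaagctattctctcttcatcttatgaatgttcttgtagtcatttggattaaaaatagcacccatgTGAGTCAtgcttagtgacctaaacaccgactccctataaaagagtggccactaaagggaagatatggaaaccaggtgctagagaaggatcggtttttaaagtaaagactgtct
Mmp13: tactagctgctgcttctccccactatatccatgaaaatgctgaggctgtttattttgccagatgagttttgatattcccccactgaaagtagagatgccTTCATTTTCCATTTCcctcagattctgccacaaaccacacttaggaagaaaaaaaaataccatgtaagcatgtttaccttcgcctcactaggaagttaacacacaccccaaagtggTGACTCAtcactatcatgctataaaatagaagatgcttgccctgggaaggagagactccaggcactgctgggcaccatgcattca
Ciart: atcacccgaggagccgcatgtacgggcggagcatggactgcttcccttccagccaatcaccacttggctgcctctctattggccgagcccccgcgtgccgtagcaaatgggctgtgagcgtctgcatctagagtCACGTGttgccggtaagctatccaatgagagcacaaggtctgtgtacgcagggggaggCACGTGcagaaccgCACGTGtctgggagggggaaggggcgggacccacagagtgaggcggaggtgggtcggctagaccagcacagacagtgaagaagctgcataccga
Ang4: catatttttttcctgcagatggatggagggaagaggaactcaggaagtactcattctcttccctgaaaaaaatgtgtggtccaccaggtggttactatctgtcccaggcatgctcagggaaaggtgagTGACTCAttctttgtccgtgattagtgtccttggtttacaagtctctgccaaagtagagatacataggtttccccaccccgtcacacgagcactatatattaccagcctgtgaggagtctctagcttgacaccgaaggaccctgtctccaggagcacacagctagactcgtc

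The motifs were searched on both strands, as TGANTCA for AP-1, TTGCNNAA for C/EBP, GAAANNGAA for ISRE, GGANTTTCC for NF-kB, TTCCNGGAA for STAT and CACGTG for the E-box. A window was found for 63 of the 81 genes with a negative term and 45 of the 62 with a positive one. AP-1 letters stood in 13 of the 63 and 3 of the 45, against 8.97% of the 27025 genes with a window. C/EBP letters stood in 14 and 7 (12.2% of all), ISRE letters in 5 and 3 (9.76%), E-boxes in 4 and 4 (8.09%), NF-kB letters in 3 and 1 (1.45%) and STAT letters in 1 and 1 (1.35%). A match says that the letters are there and is not a measurement of binding.

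Of 25 measured neutrophil genes, 8 had a negative call and none a positive one (0.365% and 0.28% of all genes), all 25 terms were negative, and the median was -1.67. With the acinar and squamous covariates none was called, the median was -0.83 and the term of S100a8 was -2.36 (limma adjusted p = 0.209), and the squamous mean was itself higher in IL10KO, as given above. In this bulk tissue, fewer cells of a type and less RNA per cell cannot be told apart. S100a8, which with S100a9 forms calprotectin, an abundant protein of the neutrophil cytosol, read 2.35, 2.69 and 2.60 in WT, 5.60, 7.08 and 8.19 in IL10KO, 2.58, 2.68 and 2.62 in SKO, and 2.52, 3.06 and 3.06 in DKO. The 3 IL10KO arrays spread widely, yet the lowest stood above all 9 others, and the term was -4.15 ± 0.62 (limma adjusted p = 0.0103). Retnlg, a resistin-like protein of neutrophils, read 3.13, 3.22 and 4.01 in WT, 6.42, 8.74 and 6.71 in IL10KO, 4.13, 3.08 and 4.16 in SKO, and 3.62, 2.82 and 2.88 in DKO, and its term was -4.52 ± 0.70 (limma adjusted p = 0.0122). Of the 3 DKO arrays, 2 lay below every SKO array, with a DKO minus SKO difference of -0.68. Clec4e, a receptor for mycobacterial and dead-cell lipids, chosen after its values were seen, had a term of -2.15 ± 0.34 (limma adjusted p = 0.0122) and no overlap between IL10KO and the rest. S100a9 had a term of -2.94 ± 0.48 (limma adjusted p = 0.0147), lost without SKO array 2 and DKO arrays 1 and 2 (adjusted p up to 0.0525). The number of called neutrophil genes was 4 on omitting SKO array 2 and DKO array 2, 5 on omitting DKO array 1 and 16 on omitting IL10KO array 1.

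Of 26 measured macrophage genes, 2 had a negative call and none a positive one (0.365% and 0.28% of all genes). The list median was -0.53 (from -0.69 on omitting IL10KO array 1 to -0.31 on omitting WT array 2). With the covariates 1, Chil3, was called and the median was -0.05. The 2 were Chil3, a chitinase-like protein of alternatively activated macrophages, with -3.21 ± 0.49 (limma adjusted p = 0.0118), and Lyz1, a lysozyme that Paneth cells make, with -2.13 ± 0.31 (limma adjusted p = 0.00857). Lyz1 is also a member of the deep crypt secretory list, and its call is counted there again. Chil3 read 2.84, 3.43 and 3.27 in WT, 6.99, 6.69 and 5.21 in IL10KO, 3.20, 3.41 and 3.17 in SKO, and 3.01, 3.54 and 2.96 in DKO. IL10KO array 3 was the lowest of its genotype, and still lay above all 9 others. The count was 4 on omitting IL10KO array 1.

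Among 23 inflammatory cytokines, Il11 and Il1a had negative calls and none a positive one (0.365% and 0.28% of all genes). The list median was -0.35, against -0.04 over all genes. With the covariates none was called, and the median was -0.49. Il11, a cytokine of stromal cells in the IL-6 family, read 4.13, 4.09 and 3.81 in WT, 5.41, 6.36 and 6.13 in IL10KO, 4.18, 4.28 and 3.74 in SKO, and 3.95, 4.26 and 4.22 in DKO. The IL10KO arrays lay above all others, its term was -1.88 ± 0.31 (limma adjusted p = 0.0173), and the call was lost without SKO arrays 1 and 2 and DKO array 1 (adjusted p up to 0.0566). Il1a, an alarmin released by damaged epithelium, had a term of -1.80 ± 0.33 (limma adjusted p = 0.0268), called in 4 of 12 fits and lost without WT arrays 1 and 2, IL10KO array 3, SKO arrays 1, 2 and 3 and DKO arrays 1 and 2 (adjusted p up to 0.0885). Il1b, which encodes interleukin-1 beta, read 6.33, 4.97 and 4.64 in WT, 7.82, 9.71 and 8.79 in IL10KO, 4.95, 4.51 and 4.66 in SKO, and 4.96, 5.33 and 5.56 in DKO. Its term of -2.88 ± 0.62 was as large as many called ones but was not called (limma adjusted p = 0.0571). The standard deviation of Il1b was 0.90 in WT, where array 1 stood apart, and 0.95 in IL10KO. Il6 at -1.51 ± 0.39 (limma adjusted p = 0.112) and Tnf at -0.50 ± 0.29 (limma adjusted p = 0.411) were not called either. These 3 were chosen for their role after their values were seen. The count of called cytokines was 0 on omitting SKO arrays 1 and 2 and DKO array 1, 1 on omitting WT array 2, IL10KO array 3, SKO array 3 and DKO array 2 and 5 on omitting IL10KO array 1.

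Of 26 chemokines in the list, Cxcl14 and Cxcl2 had negative calls and none a positive one (0.365% and 0.28% of all genes). The list does not hold Ppbp, a chemokine with a called term of -2.94 that is described below. The list median was -0.41 (from -0.84 on omitting WT array 1 to -0.27 on omitting WT array 2). With the covariates none was called, and the median was -0.23. Cxcl14, a chemokine that epithelium makes without inflammation, read 7.68, 7.91 and 8.05 in WT, 9.53, 9.68 and 8.93 in IL10KO, 8.15, 8.04 and 7.95 in SKO, and 7.53, 7.44 and 7.75 in DKO. DKO lay below SKO in all 3 arrays while IL10KO lay above WT, and the term was -1.97 ± 0.26 (limma adjusted p = 0.0048). Cxcl2, which draws neutrophils, had a term of -1.69 ± 0.30 (limma adjusted p = 0.0218), lost without WT array 1, SKO arrays 1, 2 and 3 and DKO arrays 1 and 2 (adjusted p up to 0.0671). Cxcl1 at -1.27 ± 0.31 (limma adjusted p = 0.0882) and Cxcl5 at -2.83 ± 0.60 (limma adjusted p = 0.0537), which bind the same receptor and were chosen after their values were seen, were not called. The term of Cxcl5 was -3.04 (limma adjusted p = 0.0482) without the library labelled WT replicate 3, a call. The count was 1 on omitting WT array 1, SKO arrays 1, 2 and 3 and DKO arrays 1 and 2 and 5 on omitting IL10KO array 1.

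**Figure D2:**
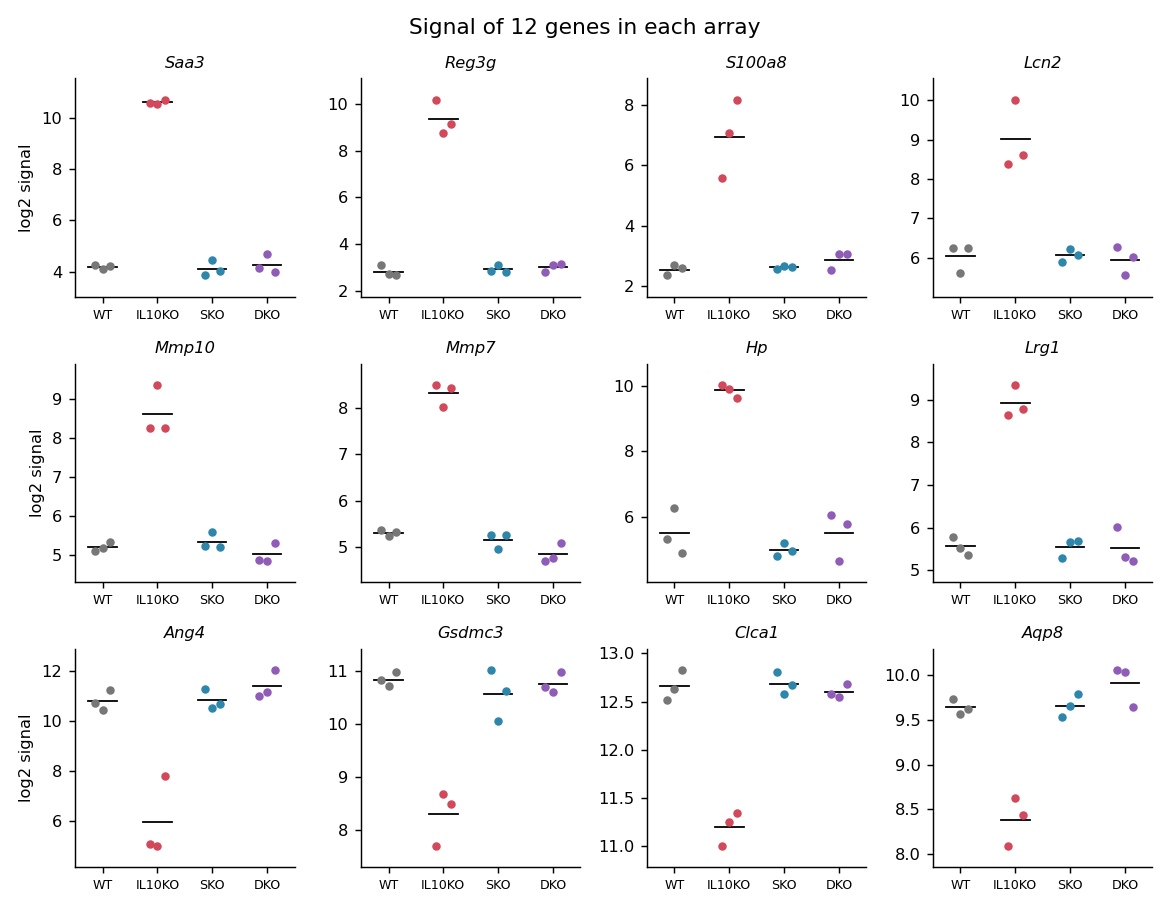
Log2 signal (vertical axis) of 12 called genes in each of the 3 arrays per genotype (points), with the genotype mean (bar) and a separate scale in each panel. In every panel the 3 IL10KO arrays lie apart from the 9 others, above them from Saa3 to Lrg1 and below them from Ang4 to Aqp8.

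Of 36 measured fibroblast and extracellular matrix genes, 7 had a negative call and none a positive one (0.365% and 0.28% of all genes). Of the 36 terms, 29 were negative and 7 positive, with a median of -0.61. With the covariates 1, Mmp7, was called, and the median was -0.56. Mmp10 (stromelysin-2) read 5.09, 5.17 and 5.32 in WT, 8.26, 9.38 and 8.26 in IL10KO, 5.22, 5.58 and 5.21 in SKO, and 4.87, 4.85 and 5.31 in DKO. Mmp13 (collagenase 3, which cuts fibrillar collagen) read 5.75, 5.41 and 5.27 in WT, 8.70, 10.49 and 8.89 in IL10KO, 5.40, 4.80 and 5.18 in SKO, and 5.38, 5.15 and 5.43 in DKO. Both were high in the 3 IL10KO arrays alone, with terms of -3.77 ± 0.36 (limma adjusted p = 0.000309) and -3.69 ± 0.50 (limma adjusted p = 0.0054). Mmp7 (matrilysin, an epithelial enzyme) read 5.36, 5.23 and 5.32 in WT, 8.51, 8.03 and 8.44 in IL10KO, 5.26, 4.96 and 5.27 in SKO, and 4.71, 4.76 and 5.09 in DKO, and its term was -3.34 ± 0.22 (limma adjusted p = 6.63e-06). A second, dimmer probe set of Mmp7, which was not the one used for the gene, had a term of 0.02 ± 0.26 and was not called.

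Lox, which cross-links collagen and elastin, had a term of -2.07 ± 0.26 (limma adjusted p = 0.00477) and was called in all 12 fits that leave out 1 array, as were the 3 metalloproteinases. Timp1, an inhibitor of metalloproteinases, had -1.84 ± 0.37 (limma adjusted p = 0.0402), Col12a1, a collagen that binds fibrils, -1.25 ± 0.25 (limma adjusted p = 0.0402) and Pdpn, a surface glycoprotein of fibroblasts and lymphatic vessels, -1.08 ± 0.22 (limma adjusted p = 0.0409). These last 3 genes lie outside the 4 called members that the rule takes from this list and were chosen after their values were seen. Their calls were lost in most of the 12 fits, Timp1 and Pdpn holding in 3 and Col12a1 in 4. The count of called matrix genes was 4 on omitting WT arrays 1 and 2, SKO arrays 1, 2 and 3 and DKO arrays 1, 2 and 3. Outside the list, Igfbp4 and Igfbp5, which bind insulin-like growth factors and were chosen after their values were seen, had terms of -1.42 ± 0.18 (limma adjusted p = 0.00477) and -1.62 ± 0.26 (limma adjusted p = 0.0129). Igfbp4 read 8.51, 8.76 and 8.84 in WT, 9.88, 9.86 and 10.06 in IL10KO, 8.75, 8.70 and 8.90 in SKO, and 8.64, 8.55 and 8.60 in DKO, with IL10KO above all others.

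Some further genes had a negative call in all 12 fits. Lrg1, a glycoprotein of the acute phase, read 5.78, 5.53 and 5.36 in WT, 8.63, 9.35 and 8.77 in IL10KO, 5.28, 5.65 and 5.69 in SKO, and 6.02, 5.31 and 5.23 in DKO, with a term of -3.38 ± 0.33 (limma adjusted p = 0.000311) and no overlap of IL10KO with the rest. The next 5, members of no list, were chosen after their values were seen. Chil1, a chitinase-like protein of inflamed epithelium and macrophages, had -2.46 ± 0.32 (limma adjusted p = 0.00477), and Dio2, the deiodinase that activates thyroid hormone, -2.57 ± 0.41 (limma adjusted p = 0.0129). A second, dimmer probe set of Dio2, which was not the one used for the gene, had a term of -0.64 ± 0.21 and was not called. Sema7a, a membrane semaphorin, had -1.30 ± 0.20 (limma adjusted p = 0.0122), Capg, an actin-capping protein, -1.26 ± 0.20 (limma adjusted p = 0.0129), and Ifitm1, an interferon-inducible membrane protein, -1.24 ± 0.19 (limma adjusted p = 0.0122). Ier3, an early-response gene of NF-kB and stress signals, had -2.39 ± 0.31 (limma adjusted p = 0.0048). With Junb, a subunit of AP-1, at -1.22 ± 0.21 (limma adjusted p = 0.0184), it was 1 of 2 called among 25 immediate-early and heat shock genes (0.365% of all genes had a negative call). The list median was 0.10 (from -0.00 on omitting the library labelled WT replicate 3 to 0.16 on omitting WT array 2). Junb was called in 6 of the 12 fits and lost without WT arrays 1 and 2, SKO arrays 1 and 2 and DKO arrays 1 and 2 (adjusted p up to 0.067).

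A few negative calls with large terms rested on fewer arrays. Serpina3n, a serine protease inhibitor of the acute phase, read 9.01, 7.91 and 10.27 in WT, 11.17, 11.50 and 10.38 in IL10KO, 10.23, 10.16 and 10.05 in SKO, and 8.67, 8.55 and 9.24 in DKO. It was high in SKO too, and the library labelled WT replicate 3 lay within 0.25 of the SKO arrays, unlike the other WT arrays. Its term was -3.28 ± 0.62 (limma adjusted p = 0.0331), and -3.89 (limma adjusted p = 0.00157) without that library. The call held in 6 of the 12 fits and was lost without WT array 1, SKO arrays 1, 2 and 3 and DKO arrays 1 and 2 (adjusted p up to 0.101). Ppbp, a platelet chemokine, had -2.94 ± 0.60 (limma adjusted p = 0.0446) and was lost without WT arrays 1 and 2, the library labelled WT replicate 3, IL10KO array 3, SKO arrays 1, 2 and 3 and DKO arrays 1 and 2 (adjusted p up to 0.128).

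Ang4 had the largest positive term. It encodes a ribonuclease that kills bacteria and is made by Paneth and goblet cells, and it read 10.70, 10.42 and 11.22 in WT, 5.07, 5.01 and 7.81 in IL10KO, 11.26, 10.53 and 10.69 in SKO, and 11.00, 11.14 and 12.04 in DKO. IL10KO array 3 was less low than the other 2, yet below all 9 arrays of the other genotypes. The term was 5.39 ± 0.81 (limma adjusted p = 0.0107), and 5.17 (limma adjusted p = 0.0154) without the library labelled WT replicate 3. Of 18 measured deep crypt secretory genes, Ang4 had the positive call and Pla2g2a and Lyz1 negative ones (0.28% and 0.365% of all genes). The called members of this list thus moved in opposite directions, and its median was -0.08 (from -0.24 on omitting the library labelled WT replicate 3 to 0.08 on omitting WT array 1). With the covariates the list had 2 positive calls and no negative one, and its median was 0.11. The terms of Pla2g2a and Lyz1 were then -2.49 (limma adjusted p = 0.201) and -1.58 (limma adjusted p = 0.327). Mptx1, a pentraxin of the crypt base chosen after its values were seen, read 10.72, 10.95 and 11.40 in WT, 7.01, 8.01 and 9.43 in IL10KO, 11.40, 10.65 and 11.27 in SKO, and 10.67, 11.31 and 11.64 in DKO, and its term of 2.98 ± 0.64 was not called (limma adjusted p = 0.0597). With the covariates its term was 4.80 (limma adjusted p = 0.0307), a call.

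The gasdermins Gsdmc3 and Gsdmc2, proteins that form membrane pores, were called together. Gsdmc3 read 10.82, 10.71 and 10.98 in WT, 7.71, 8.69 and 8.49 in IL10KO, 11.02, 10.06 and 10.63 in SKO, and 10.69, 10.61 and 10.98 in DKO, with IL10KO below all others and a term of 2.74 ± 0.36 (limma adjusted p = 0.00507). Gsdmc2, its neighbour in sequence, read 10.45, 10.14 and 10.87 in WT, 7.55, 8.24 and 7.91 in IL10KO, 11.05, 9.48 and 10.47 in SKO, and 10.14, 9.98 and 10.61 in DKO, with a term of 2.50 ± 0.47 (limma adjusted p = 0.0303), lost without WT arrays 1 and 2, IL10KO array 3, SKO array 3 and DKO arrays 1, 2 and 3 (adjusted p up to 0.0691). The 2 genes are near-identical copies, so their probe sets may share signal. Of 23 measured gasdermin and cell death genes these were the 2 called (0.28% of all genes had a positive call). The list median was 0.00 (from -0.06 on omitting IL10KO array 1 to 0.04 on omitting SKO array 1, and 0.04 on omitting the library labelled WT replicate 3).

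Colonocyte genes had 2 positive calls among 34 measured and no negative one (0.28% and 0.365% of all genes). In this list 28 terms were above 0 and the median was 0.39 (from 0.23 on omitting IL10KO array 3 to 0.47 on omitting DKO array 3). With the covariates no colonocyte or goblet cell gene was called, and the colonocyte median was 0.23. Aqp8, a water channel of surface colonocytes, read 9.73, 9.57 and 9.62 in WT, 8.09, 8.62 and 8.43 in IL10KO, 9.53, 9.65 and 9.79 in SKO, and 10.06, 10.04 and 9.64 in DKO, with a term of 1.51 ± 0.23 (limma adjusted p = 0.0112). Car4, a carbonic anhydrase of the brush border, had 0.97 ± 0.20 (limma adjusted p = 0.0478), a call that held in 2 of the 12 fits and was lost without WT arrays 1 and 2, IL10KO arrays 1 and 3, SKO arrays 1, 2 and 3 and DKO arrays 1, 2 and 3 (adjusted p up to 0.149). Car1, an abundant carbonic anhydrase of the colon chosen after its values were seen, read 11.63, 11.71 and 12.20 in WT, 10.99, 9.60 and 10.09 in IL10KO, 12.10, 12.13 and 12.18 in SKO, and 11.78, 11.74 and 11.50 in DKO, and its term of 1.15 ± 0.38 was not called (limma adjusted p = 0.196). Among 25 goblet cell genes, 1 had a positive call (0.28% of all genes did) and none a negative one. It was Clca1, a secreted protein of the mucus layer, with signals of 12.52, 12.63 and 12.83 in WT, 11.00, 11.25 and 11.34 in IL10KO, 12.81, 12.58 and 12.67 in SKO, and 12.58, 12.55 and 12.68 in DKO and a term of 1.38 ± 0.19 (limma adjusted p = 0.00632). Muc2, the main mucin of the colon, chosen after its values were seen, read between 12.39 and 12.95 in all arrays, and its term of 0.19 (95% interval -0.23 to 0.61) was not called (limma adjusted p = 0.643). The count of colonocyte calls was 1 on omitting WT arrays 1 and 2, IL10KO array 3, SKO arrays 1, 2 and 3 and DKO arrays 1, 2 and 3 and 5 on omitting IL10KO array 2, and the count of goblet cell calls was 2 on omitting WT array 1.

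Further genes with a positive call were members of no list, and Acer1 among them was chosen after its values were seen. Cpm, a membrane carboxypeptidase, read 9.47, 9.73 and 9.67 in WT, 6.90, 7.72 and 6.99 in IL10KO, 9.74, 9.58 and 9.75 in SKO, and 9.57, 9.22 and 9.14 in DKO, with a term of 2.04 ± 0.28 (limma adjusted p = 0.00548). Klb (beta-klotho, a co-receptor for hormones of the fibroblast growth factor family) read 6.75, 7.27 and 6.69 in WT, 4.58, 4.78 and 4.46 in IL10KO, 6.95, 6.92 and 6.96 in SKO, and 6.97, 6.32 and 6.39 in DKO, with a term of 1.92 ± 0.27 (limma adjusted p = 0.00677). In both, the IL10KO arrays lay more than 1 below every other array. Naaladl1, a brush border peptidase, had 1.56 ± 0.23 (limma adjusted p = 0.00988), Pyroxd2, an oxidoreductase of mitochondria, 1.72 ± 0.28 (limma adjusted p = 0.0147), and Acer1, an alkaline ceramidase, 1.52 ± 0.24 (limma adjusted p = 0.0129). In Acer1 and Cpm every DKO array lay below every SKO array, and for Acer1 the mean difference was -0.69, against -2.21 with STING. Hao2, a peroxisomal oxidase, had 1.67 ± 0.30 (limma adjusted p = 0.0235), held in 7 fits and was lost without WT array 2, SKO arrays 1 and 2 and DKO arrays 1 and 2 (adjusted p up to 0.0806).

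Of 51 measured genes of xenobiotic and steroid metabolism, 1 was called (0.28% of all genes had a positive call). It was Ces2a, a carboxylesterase, with 1.20 ± 0.20 (limma adjusted p = 0.0173), lost without WT array 2, SKO array 1 and DKO arrays 1 and 2 (adjusted p up to 0.0577). Of the 51 terms, 40 were positive, with a median of 0.41. With the covariates none was called. The count was 0 on omitting WT array 2, SKO array 1 and DKO arrays 1 and 2, 2 on omitting the library labelled WT replicate 3, 3 on omitting IL10KO array 1 and 7 on omitting IL10KO array 2. None of 30 genes of fatty acid oxidation and lipid handling and none of 29 of oxidative phosphorylation was called. Their medians were 0.20 (from 0.14 on omitting DKO array 1 to 0.32 on omitting IL10KO array 2) and 0.17 (from 0.03 on omitting SKO array 2 to 0.23 on omitting SKO array 3). The first list had 1 positive call without the library labelled WT replicate 3.

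All 25 smooth muscle genes had a positive term, with a median of 0.73 against -0.04 over all genes, and 2 were called (0.28% of all genes had a positive call). With the covariates none was called, and the median was 0.93. The 2 called were Synpo2, an actin-binding protein of Z-discs and dense bodies, with 1.30 ± 0.23 (limma adjusted p = 0.0212), and Pcp4, a calmodulin regulator, with 1.27 ± 0.24 (limma adjusted p = 0.0319). Synpo2 read 8.75, 8.90 and 8.99 in WT, 7.46, 7.87 and 7.74 in IL10KO, 8.90, 8.57 and 9.04 in SKO, and 9.12, 8.95 and 8.75 in DKO, with IL10KO below all others. Myh11, smooth muscle myosin, at 0.74 ± 0.20 (limma adjusted p = 0.133) and Acta2, smooth muscle actin, at 0.32 ± 0.20 (limma adjusted p = 0.445) were not called and were chosen after their values were seen. The count was 0 on omitting WT array 2, SKO arrays 1 and 2 and DKO arrays 1 and 2, 1 on omitting WT array 1 and SKO array 3 and 6 on omitting IL10KO array 2. None of 22 enteric neuron and glia genes was called, with a median of 0.38 and Snap25, a protein of synaptic vesicle release, nearest at 1.17 ± 0.26 (limma adjusted p = 0.0685).

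**Figure D3:**
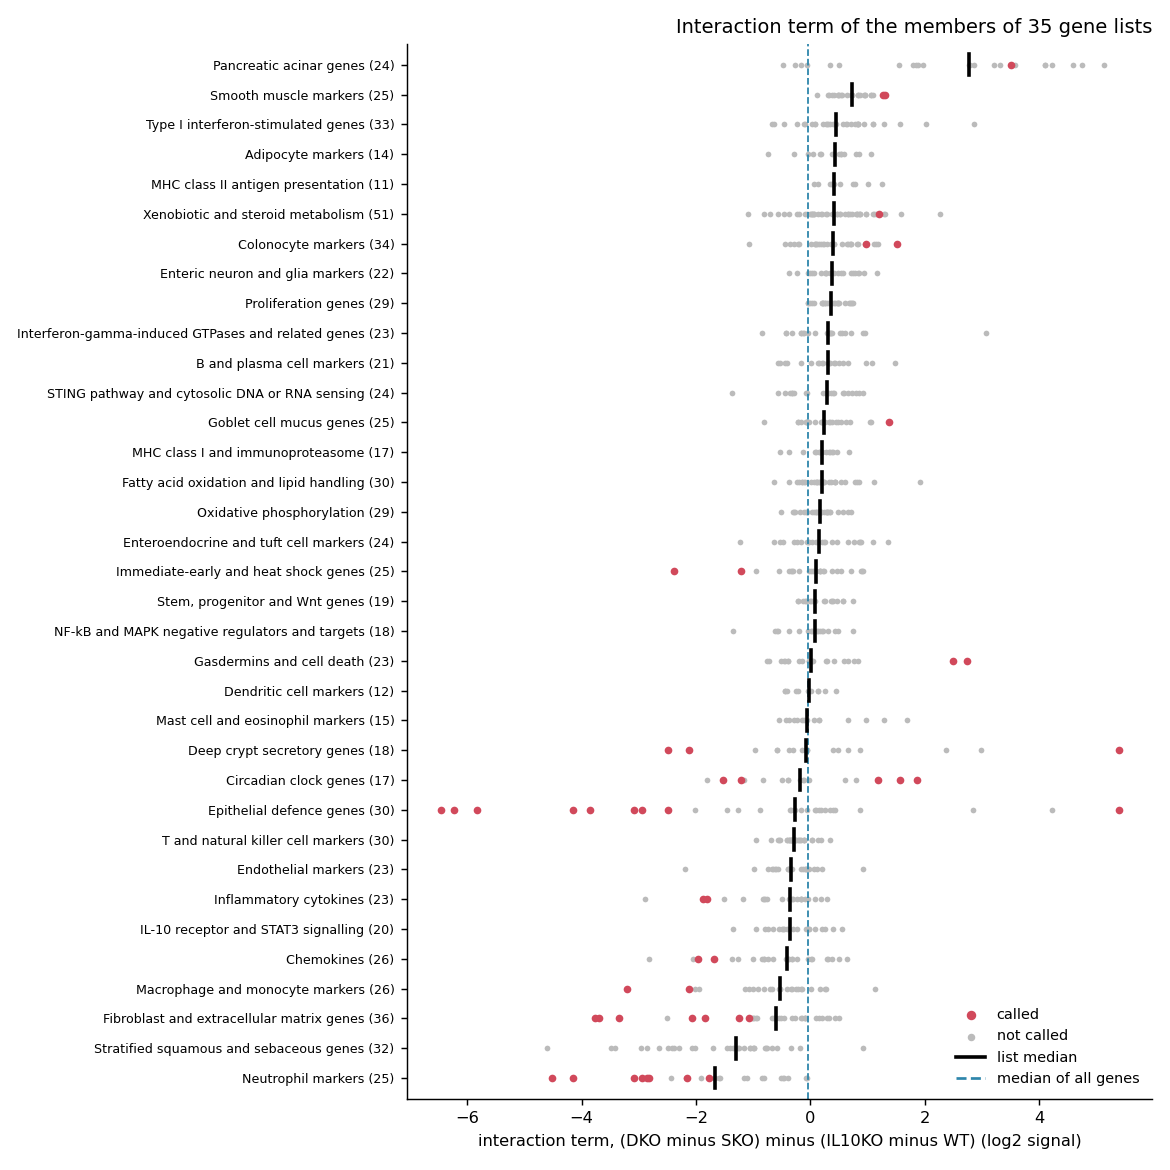
Interaction term (horizontal axis, log2 signal) of each measured member of 35 gene lists (rows, with the number measured), called members in red, list medians as black bars and the median of all genes as a dashed line. The neutrophil and squamous lists lie lowest with medians of -1.67 and -1.31, and the pancreatic acinar list highest with 2.78.

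Circadian clock genes were called in both directions. Of 17 measured, Arntl, Npas2 and Cry1 had positive and Dbp and Ciart negative calls (0.28% and 0.365% of all genes). With the covariates none was called. Arntl encodes BMAL1, which with CLOCK or NPAS2 binds E-boxes, and it read 9.13, 9.65 and 9.24 in WT, 7.36, 8.07 and 7.86 in IL10KO, 9.15, 9.35 and 9.14 in SKO, and 9.76, 9.48 and 9.26 in DKO. IL10KO lay below all 9 others, the term was 1.87 ± 0.28 (limma adjusted p = 0.011), and it was called in all 12 fits. Npas2 read 9.38, 9.38 and 9.55 in WT, 7.61, 8.38 and 7.56 in IL10KO, 9.63, 9.60 and 9.39 in SKO, and 9.79, 9.65 and 9.12 in DKO, again with IL10KO below all others, and a term of 1.57 ± 0.31 (limma adjusted p = 0.0367).

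Dbp and Ciart, E-box targets of BMAL1, ran the other way. Dbp, an output transcription factor, read 7.18, 6.97 and 7.14 in WT, 7.72, 8.26 and 7.39 in IL10KO, 7.10, 7.30 and 7.34 in SKO, and 6.46, 6.36 and 6.39 in DKO. IL10KO lay above all others and DKO below all others, so that IL-10 loss had a positive difference with STING (0.69) and a negative one without it (-0.84), with a term of -1.54 ± 0.26 (limma adjusted p = 0.0173). Ciart, a repressor of BMAL1 whose window with 3 E-boxes is shown above, read 5.14, 5.25 and 5.04 in WT, 6.06, 6.30 and 5.81 in IL10KO, 5.26, 5.31 and 5.13 in SKO, and 4.77, 4.90 and 5.14 in DKO, with a term of -1.21 ± 0.21 (limma adjusted p = 0.0212). Cry1, a repressor of the clock chosen after its values were seen, had 1.18 ± 0.24 (limma adjusted p = 0.0446). Nr1d1, which represses Arntl and was chosen likewise, read 8.58, 7.91 and 8.81 in WT, 8.22, 9.28 and 8.29 in IL10KO, 8.80, 8.38 and 9.17 in SKO, and 7.74, 7.10 and 6.57 in DKO, lowest in DKO, but its term of -1.81 ± 0.48 was not called (limma adjusted p = 0.121). Among these, calls held in 3 fits for Npas2, 8 for Dbp, 6 for Ciart and 2 for Cry1. The count of called clock genes was 1 on omitting WT array 2, SKO array 2 and DKO array 2, 2 on omitting WT array 1, SKO arrays 1 and 3 and DKO array 1 and 3 on omitting the library labelled WT replicate 3. These genes cycle over the day, and the labels give no hour of collection.

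**Figure D4:**
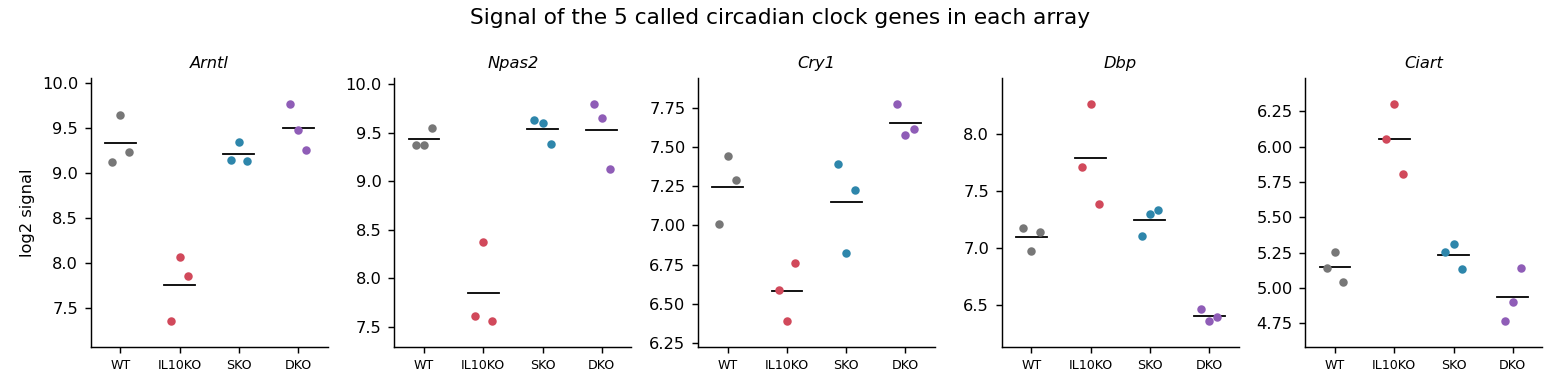
Log2 signal (vertical axis) of the 5 called clock genes in each of the 3 arrays per genotype (points) with the genotype mean (bar). Arntl, Npas2 and Cry1 are lowest in IL10KO, Dbp and Ciart are highest in IL10KO, and Dbp is lowest in DKO with signals of 6.36 to 6.46.

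In 9 called genes the DKO mean was the one farthest from the other 3, against 134 for IL10KO and none for WT or SKO. Besides Dbp they were C7, Ifit1bl1, Krtap13, Mup5, Vmn2r74, Gm609, Gm6020 and 4933440M02Rik. C7, a component of the complement attack complex, read 7.11, 6.56 and 5.87 in WT, 4.80, 6.04 and 4.94 in IL10KO, 5.89, 6.10 and 6.39 in SKO, and 8.09, 6.92 and 7.44 in DKO. Its term was 2.61 ± 0.52 (limma adjusted p = 0.0402), from -1.25 with STING and 1.36 without it, and it was lost without WT arrays 1 and 2, IL10KO array 3, SKO arrays 1, 2 and 3 and DKO arrays 1 and 3 (adjusted p up to 0.106). Ifit1bl1, of the family of interferon-induced proteins with tetratricopeptide repeats, read 10.79, 10.33 and 10.22 in WT, 9.56, 9.55 and 9.996 in IL10KO, 10.09, 9.71 and 10.59 in SKO, and 11.10, 11.32 and 11.00 in DKO. DKO lay above all 9 others, the term was 1.75 ± 0.31 (limma adjusted p = 0.0218), and it was lost without WT arrays 1 and 2, SKO arrays 1 and 2 and DKO arrays 1 and 2 (adjusted p up to 0.0751). Gm609, a predicted gene chosen after its values were seen, read 4.42, 4.40 and 4.69 in WT, 4.79, 5.17 and 4.95 in IL10KO, 4.46, 4.43 and 4.29 in SKO, and 6.32, 6.61 and 6.27 in DKO. Here too DKO lay above all others, and IL-10 loss had the larger difference without STING, 2.01 against 0.47 with it. Its term was 1.54 ± 0.21 (limma adjusted p = 0.0054), called in all 12 fits.

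The lists of the STING pathway and of interferon response held no call, while Ifitm1 and Ifit1bl1 above, members of none of these lists, did. None of 24 measured genes of STING signalling and nucleic acid sensing passed, with a median of 0.29 (from 0.18 on omitting SKO array 2 to 0.38 on omitting the library labelled WT replicate 3). Tbk1, Irf3, Irf7 and Ifnb1 were chosen after their values were seen. Tbk1, the kinase downstream of STING, had 0.30 (95% interval -0.23 to 0.83), Irf3, its substrate, 0.39 (95% interval -0.07 to 0.86), and Irf7, the interferon-induced factor, 0.80 (95% interval -0.24 to 1.84). Ifnb1 (interferon-beta) was dim, with signals of 2.74, 2.54 and 2.76 in WT, 3.02, 3.08 and 3.03 in IL10KO, 2.80, 2.86 and 2.70 in SKO, and 2.42, 2.57 and 2.76 in DKO, and its term of -0.57 ± 0.18 was not called (limma adjusted p = 0.181). Cgas, the DNA sensor, had 0.84 ± 0.26 (limma adjusted p = 0.171) and Ifih1, a sensor of double-stranded RNA, 0.92 ± 0.26 (limma adjusted p = 0.14).

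None of 33 type I interferon-stimulated genes was called, 27 terms were positive and the median was 0.44 (from 0.16 on omitting WT array 1 to 0.75 on omitting SKO array 3). Ifit1, Isg15 and Cxcl10 were chosen after their values were seen. Ifit1 read 8.04, 6.15 and 5.50 in WT, 6.09, 5.96 and 6.32 in IL10KO, 5.59, 5.38 and 7.72 in SKO, and 6.97, 7.81 and 7.29 in DKO. WT array 1 and SKO array 3 stood 1.5 or more above the rest of their genotypes, the groups overlapped, and the term of 1.57 (95% interval -0.28 to 3.41) was not called. Isg15, a ubiquitin-like protein, read 7.88, 6.63 and 5.88 in WT, 6.60, 6.35 and 7.21 in IL10KO, 5.99, 6.44 and 7.81 in SKO, and 6.73, 7.81 and 7.34 in DKO, with the same 2 arrays high and a term of 0.63 (95% interval -0.89 to 2.14). Leaving out SKO array 3 gave 1 positive call in the list. Leaving out the library labelled WT replicate 3 gave 2 positive calls and a term of 1.08 (limma adjusted p = 0.479) for Isg15. Cxcl10, a chemokine that interferons induce, had -0.43 (95% interval -1.29 to 0.43), and -0.15 (limma adjusted p = 0.873) without that library. Oas1g, an oligoadenylate synthetase, had 2.03 ± 0.47 (limma adjusted p = 0.0722), and 2.27 (limma adjusted p = 0.0485) without it. Of 23 genes of the interferon-gamma response none was called, with a median of 0.31 (from -0.23 on omitting WT array 1 to 0.53 on omitting the library labelled WT replicate 3) and -0.15 with the covariates. The same held for 11 MHC class II genes, all 11 with a positive term, with a median of 0.42 (from 0.02 on omitting WT array 1 to 0.89 on omitting the library labelled WT replicate 3). It held too for 17 MHC class I and immunoproteasome genes, with a median of 0.20 (from -0.14 on omitting WT array 1 to 0.46 on omitting the library labelled WT replicate 3) and 0.02 with the covariates. On omission of the library labelled WT replicate 3, Gbp2b, an interferon-induced GTPase, had a term of 4.56 (limma adjusted p = 0.00211) and H2-Aa, an MHC class II chain, one of 1.88 (limma adjusted p = 0.0159). Differences of 1 or more lay within the intervals of Irf7, Ifit1, Isg15 and Cxcl10.

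The IL-10 receptor and STAT3 list had no call among 20, with a median of -0.36 and Socs3, the feedback inhibitor that STAT3 induces, at -1.36 ± 0.39 (limma adjusted p = 0.141). None of 30 T and natural killer cell genes was called, with a median of -0.28 (from -0.45 on omitting WT array 1 to -0.07 on omitting the library labelled WT replicate 3), and none of 21 B and plasma cell genes, with a median of 0.30 (from 0.02 on omitting WT array 1 to 0.52 on omitting DKO array 1). The same was true of 23 endothelial genes, whose median was -0.34 (from -0.43 on omitting DKO array 1 to -0.18 on omitting IL10KO array 2), and of 14 adipocyte genes, whose median was 0.44 (from 0.03 on omitting WT array 2 to 0.58 on omitting DKO array 2). None of 29 proliferation genes was called, with a median of 0.36, and none of 24 enteroendocrine and tuft cell genes, with a median of 0.15 (from -0.02 on omitting the library labelled WT replicate 3 to 0.28 on omitting WT array 1). Lists of 19 stem, progenitor and Wnt genes, 15 mast cell and eosinophil genes, 12 dendritic cell genes and 18 negative regulators and targets of NF-kB and MAPK signalling had no call and medians of 0.08, -0.05, -0.03 and 0.07, which single omissions moved to at most 0.18 in size. In all, 20 of the 35 lists held no call, 43 of the 143 called genes were in a list, and 100 were in none.

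The 2 lists of other tissues had medians far from that of all genes, and few calls. The squamous and sebaceous list had none among 32, with a median of -1.31 and -0.04 with both covariates. Elovl3, an elongase of sebaceous glands, read 3.18, 3.11 and 3.27 in WT, 4.94, 8.78 and 9.42 in IL10KO, 3.38, 3.65 and 3.29 in SKO, and 3.15, 3.80 and 3.15 in DKO, and its term of -4.60 ± 1.10 was not called (limma adjusted p = 0.0841). IL10KO array 1 was lower than the other 2, and without it 15 members had negative calls. The acinar list had 1 positive call among 24, Clps (0.28% of all genes had a positive call). Its median was 2.78 (from 1.36 on omitting WT array 2 to 3.51 on omitting the library labelled WT replicate 3) and -0.21 with both covariates. Clps (colipase, the cofactor of pancreatic lipase) read 9.70, 11.94 and 9.77 in WT, 6.19, 5.76 and 5.87 in IL10KO, 9.59, 8.31 and 8.66 in SKO, and 7.72, 7.68 and 8.12 in DKO, and its term was 3.52 ± 0.67 (limma adjusted p = 0.0335). It was lost without IL10KO array 3, SKO arrays 2 and 3 and DKO arrays 1, 2 and 3 (adjusted p up to 0.0992). Without the library labelled WT replicate 3, 11 acinar genes had positive calls.

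Genes on which IL-10 loss acted regardless of STING were looked for with the average of both IL-10 effects. In this balanced design its error is unrelated to that of the interaction only if all genotypes spread alike. Both tests also use the same residual variance of a gene. The spread was not alike in every gene: for S100a8 the standard deviation was 1.30 in IL10KO, 0.17 in WT, 0.05 in SKO and 0.31 in DKO. An IL10KO array that reads high raises the average and lowers the interaction, so the overlap below is not an independent look. The average effect was called for 606 genes (2.73%), 244 higher and 362 lower in IL10-/- mice. This number fell to 281 and 360 without WT arrays 2 and 3, 272 and 265 without SKO arrays 1 and 3, and 288 and 268 without DKO arrays 2 and 3, and was 1295 without IL10KO array 2. Of the 606, 99 (16.3%) also had a called interaction, against 0.645% of all genes. Of the 58 among the rises, 56 had a negative term, and all 41 among the falls had a positive one, which is the direction of a smaller effect without STING. Errors of the IL10KO arrays would give the same direction, and their share was not tested. The number of 99 became 63, 41 and 101 on leaving out WT arrays 1, 2 and 3, and 218, 251 and 87 on leaving out IL10KO arrays 1, 2 and 3. It became 44, 50 and 50 for SKO arrays 1, 2 and 3, and 50, 39 and 62 for DKO arrays 1, 2 and 3. Of the 507 without a called interaction, 167 had a 95% interval within 1 of 0 and 340 reached further, so for most of them a 2-fold difference of effects remained possible.

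St3gal4, a sialyltransferase, differed with IL-10 in both backgrounds. It read 5.51, 6.18 and 6.85 in WT, 9.23, 9.52 and 9.49 in IL10KO, 6.96, 6.01 and 6.15 in SKO, and 9.92, 9.81 and 9.91 in DKO. Both IL10-/- genotypes lay above both IL10+/+ genotypes without overlap, with differences of 3.24 with STING and 3.50 without it, and the interaction was 0.27 (95% interval -0.62 to 1.15), and -0.07 (limma adjusted p = 0.941) without the library labelled WT replicate 3. Clca4b, a secreted protein of the CLCA family, read 8.94, 5.57 and 6.88 in WT, 12.19, 11.88 and 11.86 in IL10KO, 6.58, 5.52 and 8.64 in SKO, and 10.78, 11.31 and 9.52 in DKO. Its differences were 4.85 and 3.62, and the wide spread of the IL10+/+ arrays left an interaction of -1.23 (95% interval -3.64 to 1.18). Gdpd3, a phosphodiesterase of lysophospholipids, read 8.11, 7.82 and 7.64 in WT, 5.23, 5.57 and 5.84 in IL10KO, 7.57, 7.10 and 7.40 in SKO, and 5.28, 5.39 and 5.56 in DKO. It was lower in both IL10-/- genotypes without overlap, by -2.31 and -1.95, with an interaction of 0.36 (95% interval -0.19 to 0.92).

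Nxpe4 read 5.16, 5.07 and 5.25 in WT, 6.90, 8.31 and 7.33 in IL10KO, 5.38, 5.11 and 5.47 in SKO, and 9.05, 8.70 and 8.49 in DKO, and IL-10 loss had the larger difference without STING (3.43, against 2.35 with it). Its interaction of 1.07 (95% interval 0.24 to 1.91) was not called (limma adjusted p = 0.228). Cxcl9, a chemokine that interferon-gamma induces, read 8.34, 5.87 and 5.54 in WT, 9.41, 8.77 and 9.57 in IL10KO, 5.27, 5.32 and 6.28 in SKO, and 6.99, 7.64 and 7.67 in DKO, with WT array 1 far above its group and an interaction of -0.85 (95% interval -2.54 to 0.83), and -0.33 (limma adjusted p = 0.861) without the library labelled WT replicate 3. Of the 10 largest average rises, 5 had a called interaction (Reg3b, Reg3g, Saa3, Hp and S100a8), and of the 10 largest falls 2 did (Ang4 and Clps). Among the other falls, Klk1b22, a kallikrein, had 2.38 (95% interval 0.78 to 3.97) and Cyp2c55, a cytochrome P450 of the colon, 2.27 (95% interval 0.99 to 3.55), both with intervals above 0 but not called after adjustment over all genes (limma adjusted p = 0.176 and 0.113). The term of Klk1b22 was 1.54 (limma adjusted p = 0.122) without the library labelled WT replicate 3.

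**Figure D5:**
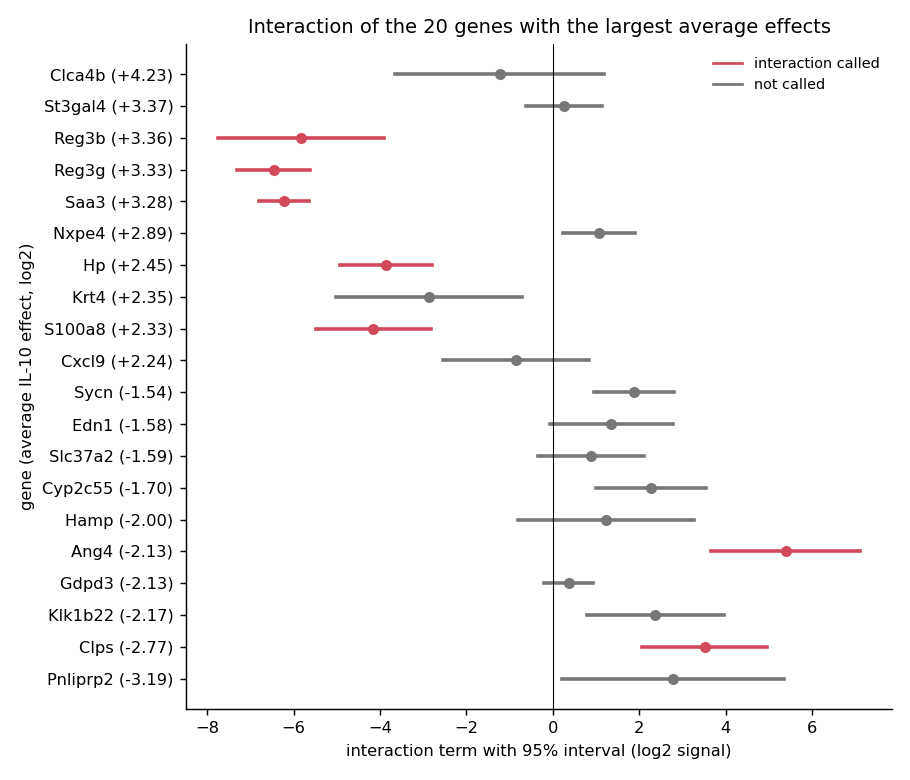
Interaction term (point, log2 signal on the horizontal axis) with its 95% interval (bar) for the 10 genes with the largest average rises and the 10 with the largest average falls on IL-10 loss, with the average effect in brackets. The intervals of St3gal4, Clca4b, Cxcl9, Gdpd3, Slc37a2, Edn1 and Hamp include 0, and those of Reg3g and Saa3 lie wholly below -5.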

How the data were processed

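The authors deposited 1 table of log2 signals for 41345 probe sets on 12 arrays, and the submitters' processing notes name Affymetrix Expression Console 1.3.1.187. The sources used here do not give the background correction, the normalization or the array build, and the log2 scale rests on the range of the values. Per the labels' protocols, 300 ng of RNA from colon was labelled per array.

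Of the probe sets, 23521 have 1 gene symbol, 1814 several and 16010 none. A gene is represented by its brightest probe set, which gives 22180 genes (1082 with over 1 probe set), and no filter was applied. Groups follow the genotype labels, and replicate numbers follow sample order and pair nothing.

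limma 3.58.1 in R 4.3.3 was fitted with 1 mean per genotype, 8 residual and 5.56 prior degrees of freedom, and 2-sided moderated tests. The interaction, the average IL-10 effect and 35 gene lists (854 of 944 entries measured) were chosen with earlier results of these data known. Some lists share members, and the measured entries are 830 different genes. Lists are described by counts and medians and were not tested. Named genes are the 15 largest called terms per direction, up to 4 called members per list or the 2 with the smallest p, the 10 largest average effects per direction, and others marked in the text as chosen after their values were seen. Predicted and clone symbols were left out of the rule. Steps were tested on simulated data. The number of arrays limits the precision.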

Additional observations from a re-analysis of the deposited data

Results flagged for a closer look

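The effect of IL-10 loss differed between the STING genotypes, by limma's test of that difference, in 81 genes with a negative term and 62 with a positive one. The 15 largest negative terms among nameable genes were -6.46 for Reg3g, -6.22 for Saa3, -5.82 for Reg3b, -4.52 for Retnlg, -4.15 for S100a8, -3.85 for Hp, -3.77 for Mmp10, -3.69 for Mmp13, -3.38 for Lrg1, -3.34 for Mmp7, -3.28 for Serpina3n, -3.21 for Chil3, -3.09 for Lcn2, -2.94 for S100a9 and -2.94 for Ppbp. In each of the 15 the IL10KO minus WT difference was positive. The 15 largest positive terms were 5.39 for Ang4, 3.52 for Clps, 2.74 for Gsdmc3, 2.61 for C7, 2.50 for Gsdmc2, 2.04 for Cpm, 2.04 for Tppp3, 1.92 for Klb, 1.87 for Arntl, 1.78 for Tppp, 1.75 for Ifit1bl1, 1.72 for Pyroxd2, 1.67 for Hao2, 1.57 for Npas2 and 1.56 for Naaladl1. In each of these the IL10KO minus WT difference was negative. Tppp3 and Tppp, not described above, were called in 2 and 7 of the 12 fits that leave out 1 array (limma adjusted p up to 0.129 and 0.0654).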

How the results depend on the processing

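The number of interaction calls was 143. It was 20 with the acinar and squamous means as covariates, 30 with all probe sets as features, 736 with array weights, whose estimate did not converge and gave SKO replicate 1 a weight of 13.6, 328 at an adjusted p under 0.10, 245 without 3 arrays at once (the library labelled WT replicate 3, IL10KO array 1 and SKO array 2), and 50 to 376 without single arrays. The number of average IL-10 effect calls was 606, and 55, 315, 3316 and 1309 under the first 4 of these settings, 130 for effects of at least 1, and 265 to 1295 without single arrays. The number called for both was 99, and 16, 26, 444 and 175 under the first 4, 170 without the 3 arrays together, and 39 to 251 without single arrays. Quantile normalization, median centring, averaging the probe sets of each gene, leaving out the dimmest genes and a trended, robust variance prior gave 171, 148, 135, 143 and 186 interaction calls. The cause of these shifts was not tested, except that all probe sets mean 41345 tests. Interactions that were not called and changed sign were Hamp (-0.57 without the 3 arrays together), St3gal4 (-0.28 with array weights, -0.34 without the 3 arrays together and -0.0694 to 0.602 without single arrays, the lowest without the library labelled WT replicate 3) and Krt4 (0.26 with the covariates). No paired analysis was possible because the labels give the arrays no shared replicate numbers. With 3 arrays per genotype and no detection calls, small differences and dim signals were not resolved.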
